A study of Homo sapiens with 12 samples.

Results

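The comparison described here is the difference between 2 lung cancer cell lines, HCC827 and PC9, in their response to the transcription factor ZNF263. It used 8 of the series' 12 libraries, 2 for each combination of line and vector. H1975, the other line of the series, was left out. A gene was tested where it had a value in all 8 libraries and at least 1 FPKM (sequenced fragments scaled to gene length and library size) in 2 or more of them. This held for 11793 of the 20030 genes in the deposited table. At that threshold, GUCA1B was just inside with a second-highest value of 1.0005 FPKM and ANKAR was just outside with 0.9995 FPKM. PC9 (labelled PC-9) and HCC827 are established lines from non-small-cell lung cancers with activating EGFR mutations, and osimertinib inhibits that receptor tyrosine kinase. In each line, cells overexpressing ZNF263 were set against cells with a control vector. The labels give stepwise osimertinib as the treatment and DMEM as the medium of all 8 libraries, so no group labelled as untreated entered the comparison. The titles add OR to each line's name, which the labels do not explain. The labels do not give the vector's promoter, the number of clones behind each line, or whether the libraries of a group came from separate cultures. The p-values therefore measure only the spread between libraries, which may be technical.

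ZNF263 is a nuclear protein with an array of C2H2 zinc fingers that bind DNA, and with SCAN and KRAB domains. KRAB domains recruit the co-repressor TRIM28, which brings histone methyltransferases and heterochromatin proteins to bound sites, although ZNF263 has been described both as a repressor and as an activator. Its recognised motif is rich in G and A and contains GGAGGA. The series asks what ZNF263 does to the response of lung adenocarcinoma cells to drugs against EGFR, and the comparison of lines asks which of its effects depend on the cell in which it is expressed.

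For each gene the change with ZNF263 was taken within each line on the log2(FPKM + 1) scale, and the PC9 change was subtracted from the HCC827 change. This difference of changes is called the interaction. A positive interaction means a larger rise, or a smaller fall, in HCC827. A gene was called when its p from limma, adjusted by the Benjamini-Hochberg method over the 11793 genes, was under 0.05. Unless another setting is named beside it, an adjusted p comes from that fit, with n = 2 libraries per group. Levels in the lines are given side by side, but the deposited values of the lines appear to have been processed separately, so the line and its processing cannot be told apart in a level. Changes were taken only within a line.

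The number of genes at 1 FPKM or more was 10432 to 10931 per library, and 1 FPKM stood for 65.1 to 80.9 reads of the median tested gene. Replicates differed somewhat more than read sampling alone would give, with mean chi-square values of 1.49 to 1.71 where sampling gives 1. The HCC827 control libraries differed most from each other, with a median absolute difference of 0.12 (log2) against 0.06 to 0.07 in the other groups. Of 7 lung epithelial markers, all reached 1 FPKM in HCC827 and 4 did so in PC9. EPCAM measured 0.168 to 0.414 FPKM in PC9 and 271 to 286 FPKM in HCC827, and NKX2-1 measured 0.0384 to 0.465 and 130.2 to 153 FPKM. KRT8 and KRT18 exceeded 640 FPKM in every library of both lines, and endothelial markers summed to at most 0.433 FPKM. The immune markers PTPRC, CD3E and MS4A1 stayed under 0.05 FPKM, and CD68, which tumour cells also express, made up most of the immune sum, although CSF1R measured 1.498 to 1.75 FPKM in HCC827. The immune sum was 43.4 to 44.3 FPKM in the HCC827 controls and 32.4 to 38.1 FPKM with ZNF263. The 9 fibroblast markers summed to 6.69 to 7.52 FPKM in PC9 and 20.7 to 23.7 FPKM in HCC827, where LUM measured 13.3 to 15.98 FPKM and COL3A1 went from 0.272 and 0.296 FPKM to 1.88 and 1.82 FPKM with ZNF263. The part of these markers in the results was not tested.

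ZNF263 (chr16:3283491-3301401 in RefSeq's GRCh38.p14, protein-coding) itself rose in both lines and by less in HCC827. It measured 9.55 and 9.11 FPKM with the control vector and 39.3 and 38.98 FPKM with ZNF263 in PC9. In HCC827 it measured 13.2 and 11.8 FPKM with the control vector and 19.6 and 19.8 FPKM with ZNF263. Groups did not overlap in either line, and the 2 ZNF263 arms did not overlap with each other. The change was 1.96 (adjusted p = 5.51e-08) in PC9 and 0.62 (adjusted p = 0.000203) in HCC827. The interaction was -1.34 ± 0.10 (SE, adjusted p = 2.19e-05). Every difference between the lines was measured beside this smaller rise of ZNF263 in HCC827, and its part in them was not tested.

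EGFR, the drug's target, fell in both lines. It went from 42.1 and 42.9 FPKM to 28.8 and 30.04 FPKM in PC9 and from 442 and 469.5 FPKM to 361 and 369 FPKM in HCC827. The changes were -0.52 and -0.32, and the interaction of 0.20 (95% interval 0.02 to 0.38, adjusted p = 0.176) was not called. Without HCC827 control replicate 2 it was 0.24 (adjusted p = 0.0477). AURKA, a mitotic kinase, also fell in both lines, from 31.1 and 33.4 FPKM to 10.02 and 12.2 FPKM in PC9 and from 43.3 and 43.5 FPKM to 21.7 and 26.8 FPKM in HCC827. The fall was smaller in HCC827, with an interaction of 0.64 ± 0.14 (adjusted p = 0.02003). That call was lost in 4 of the 8 fits that left out 1 library, and without HCC827 ZNF263 replicate 2 the interaction was 0.49. The deposited AURKA values were not whole multiples of a read's worth, unlike those of most tested genes.

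The ZNF263 response differed between the lines for 947 genes, 8.03% of those tested. Of these, 502 (4.26%) were higher in HCC827 and 445 (3.77%) were lower. At an unadjusted p under 0.05 there were 2791. The median interaction was 0.05 over all tested genes, and 69 called genes had an interaction of at least 1 in size. Within lines, ZNF263 changed 1123 genes in PC9 (9.52%), of which 748 rose and 375 fell. In HCC827 it changed 2026 genes (17.2%), of which 1384 rose and 642 fell, although ZNF263 itself rose less there. The split in HCC827 depended on scaling: with median-of-ratios scaling within each line it was 977 to 934, and the split of the interactions was 356 to 533 in place of 502 to 445. With 7 libraries in place of 8, the number of called interactions ranged from 429 without PC9 control replicate 2 to 1862 without HCC827 control replicate 2.

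**Figure D1:**
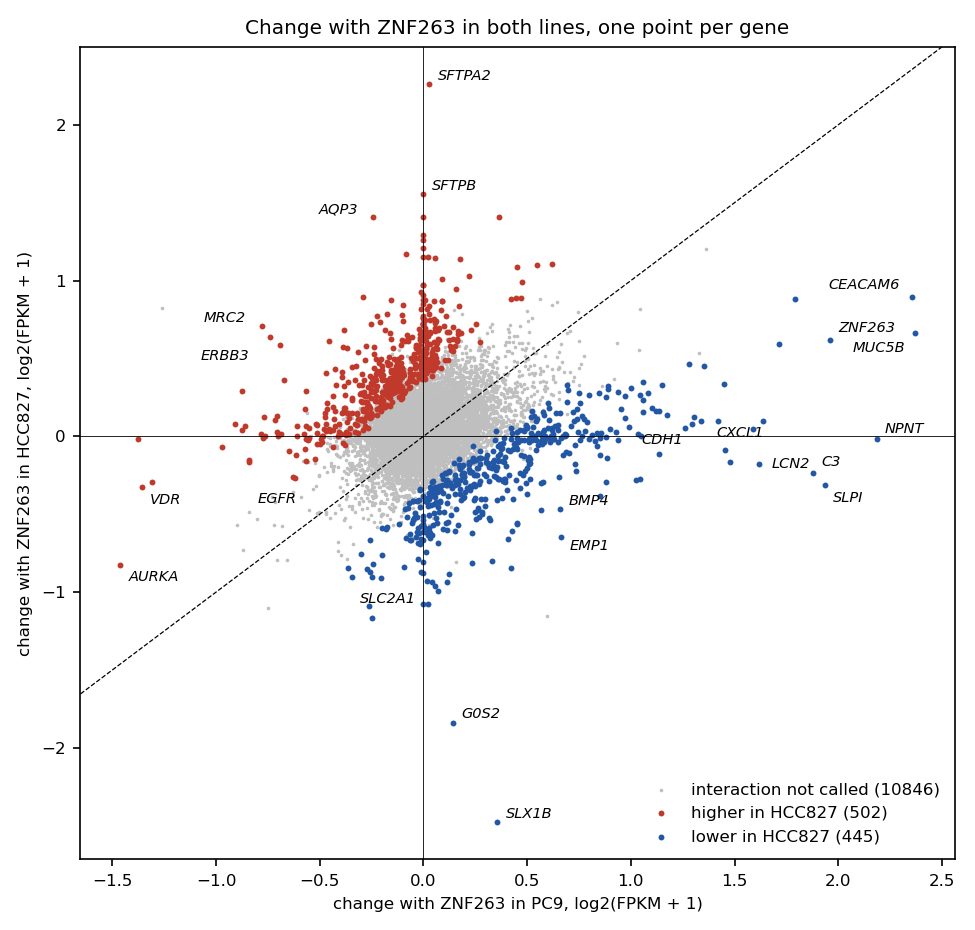
Each point is 1 of the 11793 tested genes, with its change with ZNF263 in PC9 on the x axis and in HCC827 on the y axis, both as log2(FPKM + 1) differences between group means of 2 libraries. Red points (502) have a called interaction that is higher in HCC827, blue points (445) one that is lower, and on the dashed line both changes are equal; the red points gather along the vertical axis and the blue points along the horizontal axis and below it.

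The called genes fell into a few patterns. Of the 502 higher in HCC827, 331 rose in HCC827 with no call in PC9, 101 fell in PC9 with no call in HCC827, and 25 fell in PC9 and rose in HCC827. Of the 445 lower in HCC827, 190 rose in PC9 with no call in HCC827, 170 fell in HCC827 with no call in PC9, and 35 rose in PC9 and fell in HCC827. A call in 1 line did not by itself make a difference between the lines: 740 genes were called in PC9 and not in HCC827, but the interaction was called for 291 of them. Of the 1643 called in HCC827 and not in PC9, 501 had a called interaction. Both lines called 383 genes, of which 323 changed in the same direction, 244 up and 79 down. Across the tested genes the changes in the 2 lines had a Pearson correlation of 0.232, as a description over genes, which are not independent replicates.

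Some of these genes were expressed in 1 line only. Both lines reached a group mean of 1 FPKM for 634 of the 947, PC9 alone did so for 114 and HCC827 alone for 199. Over the 11793 tested genes these counts were 9854, 793 and 1130. Among the 502 genes higher in HCC827, 39 were listed at 0 in all 4 PC9 libraries, as were 179 of all tested genes. For those genes the interaction equals the change in HCC827, and PC9 gave no measurable response to compare with.

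Several genes of the surfactant and lung lineage rose with ZNF263 in HCC827. Of 15 tested members of that list, 7 had a called interaction and all 7 were higher in HCC827, against 4.26% of all tested genes. SFTPA1, SFTPB, AQP5 and HOPX, listed at 0 in all PC9 libraries, and SFTPA2, at 0 in 3 of 4, passed the filter on low values through HCC827 alone, so this count does not support a difference of the list; with at least 1 FPKM required in all 8 libraries it was 2. Within HCC827, 10 members rose and 1 fell (11.7% and 5.44% of all genes), and within PC9, 2 rose and 1 fell (6.34% and 3.18%). The list's median interaction was 0.47, against 0.05 over all tested genes. The genes were SFTPA1, SFTPA2, SFTPB, LPCAT1, FOXA2, AQP5 and HOPX. Alveolar type 2 cells secrete surfactant, the mixture of lipids and proteins that keeps alveoli open, and the proteins A and B are among its main components.

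SFTPA2, which encodes surfactant protein A2, was listed at 0 in 3 PC9 libraries and at 0.0395 FPKM in the other. The HCC827 libraries gave 2.48 and 2.08 FPKM with the control vector and 16.99 and 12.7 FPKM with ZNF263. Its interaction of 2.23 ± 0.16 (adjusted p = 2.06e-05) was the largest positive one among the named genes. Its neighbour SFTPA1, a near-identical copy whose reads the counting may have divided uncertainly, went from 1.72 and 2.24 FPKM to 8.41 and 5.63 FPKM in HCC827 and was listed at 0 in PC9. SFTPB, which encodes the hydrophobic surfactant protein B, was also at 0 in PC9 and measured 10.4 and 10.8 FPKM with the control vector and 38.2 and 28.8 FPKM with ZNF263 in HCC827. Both ZNF263 libraries lay far above both controls for these genes, and the SFTPB interaction was 1.56 ± 0.15 (adjusted p = 0.000154).

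LPCAT1, an acyltransferase that makes surfactant phospholipid, was expressed in both lines. It measured 32.5 and 32.6 FPKM with the control vector and 34.8 and 34.95 FPKM with ZNF263 in PC9. Its HCC827 values were 249 and 239.5 FPKM with the control vector and 416 and 383 FPKM with ZNF263. The interaction was 0.61 ± 0.09 (adjusted p = 0.00136), and it stayed called without any 1 library. FOXA2, a lung lineage transcription factor, measured 17.5 to 19.9 FPKM in PC9, without a call there, and rose in HCC827 from 1.99 and 1.45 FPKM to 2.97 and 2.46 FPKM (interaction 0.59, adjusted p = 0.0269). The interactions of AQP5, an airway water channel, and HOPX, a homeodomain protein of the alveolar epithelium, were 0.91 and 0.41 (adjusted p = 0.0295 and 0.0497). NKX2-1, the master regulator of the lineage, had an interaction of -0.19 (adjusted p = 0.388) and was not called; with a pseudocount of 0.1 it was -1.31 (adjusted p = 0.0248), its PC9 values being under 0.5 FPKM.

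The call was least secure for the members with low values. FOXA2, AQP5 and HOPX were called in 3, 2 and 1 of the 8 fits without 1 library, and the list's count fell to 4 without any 1 of the PC9 libraries or without HCC827 ZNF263 replicate 1. AQP5 and HOPX were not called with a pseudocount of 0.1 (adjusted p = 0.0951 and 0.217). With a pseudocount of 5 the interactions of SFTPA2 and SFTPA1 were 1.43 and 0.78, still called.

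The promoters of the leading genes in each direction are shown because ZNF263 binds DNA. They are those of the first 3 named genes of each direction with an entry in the promoter table (SLPI and C3 had none). The sequences are the 250 bases before each gene's start in RefSeq (GRCh38.p14, whose primary chromosomes are those of the GRCh38.p13 build in the submitters' notes), on the gene's own strand. They cover SFTPA2 (chr10:79560408-79560657, minus strand), AQP3 (chr9:33447594-33447843, minus strand) and SFTPB (chr2:85668742-85668991, minus strand), which were higher in HCC827, and SLX1B (chr16:29454283-29454532, plus strand), NPNT (chr4:105895221-105895470, plus strand) and G0S2 (chr1:209675162-209675411, plus strand), which were lower. Capitals mark GGAGGA, or TCCTCC, which is GGAGGA on the other strand.
SFTPA2: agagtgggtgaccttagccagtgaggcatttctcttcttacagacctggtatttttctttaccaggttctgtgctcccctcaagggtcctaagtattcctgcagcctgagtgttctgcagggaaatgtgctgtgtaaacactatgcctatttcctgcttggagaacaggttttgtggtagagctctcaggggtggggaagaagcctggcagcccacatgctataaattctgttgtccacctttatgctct
AQP3: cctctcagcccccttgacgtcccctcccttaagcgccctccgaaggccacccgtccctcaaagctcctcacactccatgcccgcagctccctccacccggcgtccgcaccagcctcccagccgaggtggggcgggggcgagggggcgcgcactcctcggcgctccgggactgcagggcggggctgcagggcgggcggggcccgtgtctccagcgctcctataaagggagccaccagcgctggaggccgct
SFTPB: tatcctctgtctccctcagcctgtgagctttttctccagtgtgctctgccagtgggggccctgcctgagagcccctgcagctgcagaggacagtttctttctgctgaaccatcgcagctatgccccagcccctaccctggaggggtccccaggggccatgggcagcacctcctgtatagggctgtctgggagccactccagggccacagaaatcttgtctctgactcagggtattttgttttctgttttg
SLX1B: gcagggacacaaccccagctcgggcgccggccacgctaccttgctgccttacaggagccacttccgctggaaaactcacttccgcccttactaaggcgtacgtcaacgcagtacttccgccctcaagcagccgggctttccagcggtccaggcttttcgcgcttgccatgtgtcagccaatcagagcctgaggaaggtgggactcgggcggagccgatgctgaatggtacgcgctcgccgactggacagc
NPNT: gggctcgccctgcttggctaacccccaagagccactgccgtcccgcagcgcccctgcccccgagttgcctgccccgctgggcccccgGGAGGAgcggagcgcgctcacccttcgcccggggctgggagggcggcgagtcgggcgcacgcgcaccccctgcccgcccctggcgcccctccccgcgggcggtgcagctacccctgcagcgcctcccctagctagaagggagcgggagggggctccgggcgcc
G0S2: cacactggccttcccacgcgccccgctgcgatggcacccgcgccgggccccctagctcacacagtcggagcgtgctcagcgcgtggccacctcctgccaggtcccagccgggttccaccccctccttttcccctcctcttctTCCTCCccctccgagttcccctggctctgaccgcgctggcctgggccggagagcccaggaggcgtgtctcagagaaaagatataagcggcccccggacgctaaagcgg
The promoters of NPNT and G0S2 held 1 match each, and the other 4, SLX1B included, held neither word. Over all genes the shares in the 2 directions were close: 152 of the 380 promoters of genes called higher and 136 of the 336 of genes called lower held GGAGGA on either strand. The share was 35.2% of 9569 promoters of tested genes and 31.2% of all 27305 in the table. A match describes these letters in this window and does not show binding.

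Outside the surfactant list, AQP3, CAVIN2, SLC16A9, AKAP12, RAB27B and PPP1R14D were among the genes with the largest positive interactions. AQP3, a channel for water and glycerol, measured 6.02 and 6.06 FPKM with the control vector and 5.23 and 4.68 FPKM with ZNF263 in PC9. HCC827 had 31.1 and 29.7 FPKM with the control vector and 82.5 and 81.8 FPKM with ZNF263, so both ZNF263 libraries stood well above both controls there and below them in PC9. The PC9 change was -0.24 (adjusted p = 0.0452), the HCC827 change 1.40, and the interaction 1.65 ± 0.10 (adjusted p = 4.09e-06). SLC16A9, a solute carrier of the monocarboxylate transporter family, followed the same course, with 5.98 and 6.303 FPKM to 4.76 and 4.899 FPKM in PC9 and 12.7 and 14.1 FPKM to 26.9 and 24.7 FPKM in HCC827 (interaction 1.19, adjusted p = 0.000107). CAVIN2, a coat protein of caveolae, was called in HCC827 only, where it went from 4.26 and 5.17 FPKM to 11.3 and 12.3 FPKM (interaction 1.25, adjusted p = 0.0001601).

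AKAP12, a scaffold for protein kinase A, owed its interaction of 1.17 (adjusted p = 0.000108) mostly to PC9. It fell from 18.9 and 18.7 FPKM to 9.48 and 10.05 FPKM there and went from 0.685 and 0.702 FPKM to 0.991 and 1.16 FPKM in HCC827. RAB27B, a GTPase of secretory vesicles, fell in PC9 (-0.38) and rose in HCC827 (0.68), with an interaction of 1.07 (adjusted p = 0.000908). PPP1R14D, an inhibitor of protein phosphatase 1, was at or under 0.258 FPKM in PC9 and went from 3.45 and 3.44 FPKM to 10.5 and 7.396 FPKM in HCC827. Its interaction of 1.09 (adjusted p = 0.00563) was not called with a pseudocount of 0.1 (0.85, adjusted p = 0.468).

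In the other direction, SLPI and LCN2, secreted proteins of airway defence, rose in PC9 and not in HCC827. Of 10 tested CEACAMs and airway defence genes, 4 were called lower in HCC827 and 1 higher, against 3.77% and 4.26% of all genes. With at least 1 FPKM required in all 8 libraries the counts were 1 and 0, and CEACAM5, the member called higher, was listed at 0 in all 4 PC9 libraries. SLPI, a secreted inhibitor of neutrophil elastase, measured 3.49 and 3.88 FPKM with the control vector and 18.2 and 15.8 FPKM with ZNF263 in PC9. In HCC827 it measured 6.78 and 7.79 FPKM with the control vector and 5.33 and 5.98 FPKM with ZNF263. The groups did not overlap in either line and moved in opposite directions. The changes were 1.94 (adjusted p = 2.83e-07) and -0.32 (adjusted p = 0.0409), and the interaction was -2.25 ± 0.13 (adjusted p = 4.09e-06). LCN2, an iron-sequestering defence protein, rose from 0.541 and 0.228 FPKM to 2.797 and 3.71 FPKM in PC9. The HCC827 libraries gave 14.1 and 16.9 FPKM with the control vector and 14.6 and 12.6 FPKM with ZNF263, with overlapping groups. Its interaction was -1.80 ± 0.19 (adjusted p = 0.000215), and -3.04 and -0.75 with pseudocounts of 0.1 and 5.

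CEACAM6 and CEACAM5, adhesion proteins of one family, parted. CEACAM6 rose in both lines, from 0.604 and 0.556 FPKM to 6.75 and 7.44 FPKM in PC9 and from 88.4 and 109 FPKM to 194 and 174 FPKM in HCC827. Its interaction of -1.46 (adjusted p = 0.000107) depended on the scale, since it was -2.50 with a pseudocount of 0.1 and -0.25 (adjusted p = 0.238) with 5. CEACAM5 was listed at 0 in every PC9 library and rose from 3.89 and 4.53 FPKM to 12.1 and 10.001 FPKM in HCC827, with an interaction of 1.21 (adjusted p = 0.000309; 0.80 with a pseudocount of 5). LYPD1, a GPI-anchored protein, rose in both lines and more in PC9 (interaction -1.12, adjusted p = 0.000582). AGR2, a disulfide isomerase needed for mucin folding, rose in both lines by 0.62 and 0.84, with an interaction of 0.22 (95% interval 0.01 to 0.44).

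The gel-forming mucins MUC5B and MUC5AC, the main polymers of airway mucus, made up both called members of the 7 tested mucins, both lower in HCC827 (3.77% of all genes). They passed the filter on low values through PC9, and with at least 1 FPKM required in all 8 libraries the count was 0. MUC5B rose from 2.21 and 2.504 FPKM to 16.4 and 16.2 FPKM in PC9 and from 0.201 and 0.233 FPKM to 1.12 and 0.752 FPKM in HCC827 (interaction -1.71 ± 0.14, adjusted p = 3.69e-05). MUC5AC rose from 2.601 and 2.701 FPKM to 10.3 and 10.4 FPKM in PC9 and stayed at or under 0.133 FPKM in HCC827 (interaction -1.54 ± 0.10, adjusted p = 1.37e-05). Both levels are low in HCC827, and with pseudocounts of 0.1 and 5 the interactions were -1.06 and -1.35 for MUC5B and -1.31 and -0.98 for MUC5AC. The membrane mucin MUC1 rose in both lines by 0.71 and 0.68, with an interaction of -0.03 (95% interval -0.33 to 0.27). MUC13 and MUC20 also rose in both lines without a called interaction (-0.07 and 0.01).

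C3, the central component of complement, measured 8.19 and 8.65 FPKM with the control vector and 34.7 and 32.7 FPKM with ZNF263 in PC9. Its HCC827 values were 1.197 and 0.932 FPKM with the control vector and 0.738 and 0.768 FPKM with ZNF263. The groups were far apart in PC9 and close together in HCC827, where the change of -0.23 was not called (adjusted p = 0.0786). The interaction was -2.11 ± 0.12 (adjusted p = 4.09e-06). Among 14 tested complement genes, 2 were called lower in HCC827 and 2 higher, against 3.77% and 4.26% of all genes. C3 and VTN (-0.78) were lower, and the membrane inhibitors CD55 (0.47) and CD46 (0.61) were higher. VTN encodes vitronectin, a plasma protein that also binds the terminal complement complex, and its interaction moved from -1.61 to -0.26 between pseudocounts of 0.1 and 5. CD55 and CD46 were called in 6 and 5 of the 8 fits without 1 library, and the count of members higher fell to 0 without PC9 ZNF263 replicate 1. The count lower was 0 with at least 1 FPKM required in all 8 libraries. C1R and CFI rose in both lines, with interactions of -0.07 and -0.26 that were not called, although that of CFI was -1.16 (adjusted p = 0.003197) with a pseudocount of 0.1.

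CXCL1, a chemokine that attracts neutrophils, rose from 11.5 and 11.5 FPKM to 31.9 and 34.5 FPKM in PC9. HCC827 had 12.4 and 12.9 FPKM with the control vector and 12.6 and 11.1 FPKM with ZNF263, with overlapping groups, and the interaction was -1.54 ± 0.11 (adjusted p = 1.37e-05). CXCL8, its relative with the same receptor, fell in both lines instead, with changes of -0.87 and -0.73 (interaction 0.14, 95% interval -0.27 to 0.54). LGALS3BP, a secreted glycoprotein that binds galectin, rose from 14.6 and 14.6 FPKM to 43.3 and 41.6 FPKM in PC9 and was not called in HCC827, where it measured 249 to 302 FPKM (interaction -1.64, adjusted p = 4.09e-06).

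Several of the genes lowest in HCC827 relative to PC9 have other roles. NPNT encodes nephronectin, a basement membrane ligand of integrins. It rose from 1.01 and 1.32 FPKM to 8.204 and 9.48 FPKM in PC9 and lay at or under 0.0615 FPKM in HCC827 (interaction -2.20 ± 0.13, adjusted p = 4.09e-06; -2.95 and -1.17 with pseudocounts of 0.1 and 5). ANXA13, an annexin of epithelial membranes, rose from 1.89 and 1.32 FPKM to 7.26 and 6.32 FPKM in PC9 and was at or under 0.0716 FPKM in HCC827 (interaction -1.54 ± 0.15, adjusted p = 0.000122; -0.83 with a pseudocount of 5). S100P, a calcium-binding protein, rose in both lines, from 13.3 and 11.7 FPKM to 42.5 and 49.3 FPKM in PC9 and from 2.47 and 1.97 FPKM to 4.46 and 5.404 FPKM in HCC827 (interaction -0.91, adjusted p = 0.00448).

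G0S2, an inhibitor of the triglyceride lipase ATGL, fell in HCC827. It measured 113 and 112 FPKM with the control vector and 29.99 and 31.6 FPKM with ZNF263 there and at most 0.606 FPKM in PC9, and the interaction was -1.98 ± 0.19 (adjusted p = 0.0001499). SLX1B, a structure-specific DNA endonuclease, had the most negative interaction of the named genes (-2.83 ± 0.22, adjusted p = 2.92e-05; -4.28 and -1.30 with pseudocounts of 0.1 and 5). It went from 8.61 and 6.48 FPKM to 0.341 and 0.728 FPKM in HCC827. SLX1A is a near-identical copy of this gene, so the division of reads between them, and with it this value, is uncertain.

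**Figure D2:**
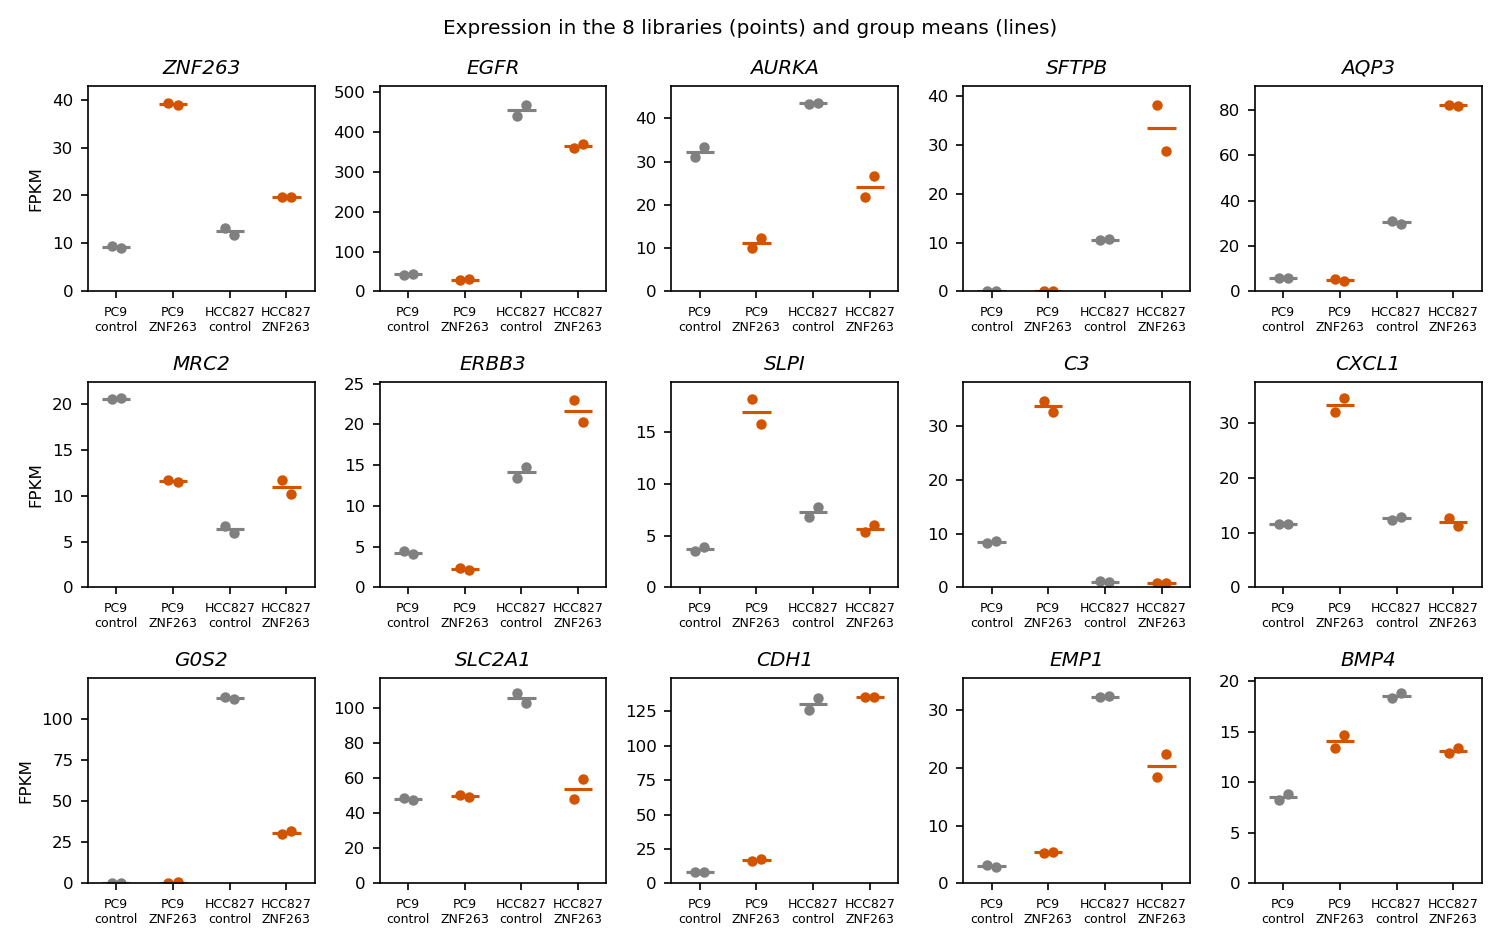
Expression of 15 named genes in FPKM on linear axes that start at 0, with 1 point per library (2 per group) and a line at the group mean, for control vector (grey) and ZNF263 (orange) in PC9 and HCC827. SFTPB and AQP3 rise in HCC827, SLPI, C3 and CXCL1 rise in PC9, G0S2 and SLC2A1 fall in HCC827, and MRC2, ERBB3, EMP1 and BMP4 move in opposite directions.

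Genes of hypoxia and glycolysis fell in HCC827 and mostly had no call in PC9. All 32 genes of the list were tested. In HCC827, 18 fell and none rose (5.44% and 11.7% of all genes). Within PC9 none fell and 2 rose (3.18% and 6.34% of all genes). The interaction was called for 13, all lower in HCC827, against 3.77% of all genes, and the list's median interaction was -0.30. SLC2A1, the glucose transporter GLUT1, measured 48.4 and 47.4 FPKM with the control vector and 50.3 and 49.2 FPKM with ZNF263 in PC9. In HCC827 it measured 108 and 102 FPKM with the control vector and 48.1 and 59.5 FPKM with ZNF263, so both ZNF263 libraries lay well under both controls (interaction -1.02 ± 0.12, adjusted p = 0.000477). NDRG1, a stress-responsive gene induced by hypoxia, went from 19.3 and 18.8 FPKM to 21.3 and 23.97 FPKM in PC9 and fell from 16.2 and 14.9 FPKM to 8.68 and 8.13 FPKM in HCC827 (interaction -1.05 ± 0.11, adjusted p = 0.000199).

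Enzymes along the glycolytic pathway shared this pattern with smaller sizes. PGK1 had an interaction of -0.50 (adjusted p = 0.00653), GAPDH of -0.48 (0.0148), TPI1 of -0.43 (0.0214) and LDHA, which makes lactate, of -0.38 (0.0307). PGK1 went from 294 and 297 FPKM to 312 and 313 FPKM in PC9 and from 151 and 137 FPKM to 104 and 111 FPKM in HCC827. PDK1, the kinase that shuts pyruvate out of the mitochondrion, and GPI, PGAM1, ADM and VEGFA were also called. CA9 and EGLN3 reached their calls by another route, since both rose in PC9: CA9, a carbonic anhydrase of hypoxic cells, went from 3.82 and 3.38 FPKM to 8.37 and 7.13 FPKM there and was at or near 0 in HCC827 (interaction -0.90, adjusted p = 0.00126; -0.86 and 0.0813 with a pseudocount of 0.1). EGLN3, a prolyl hydroxylase that marks HIF for destruction, rose by 0.48 in PC9 (interaction -0.61, adjusted p = 0.00455). The count of 13 was 6 without PC9 control replicate 1, PC9 control replicate 2, PC9 ZNF263 replicate 1 or HCC827 ZNF263 replicate 1, and 9 without PC9 ZNF263 replicate 2. It was also 6 without the filter on low values. SLC2A1, NDRG1, EGLN3, CA9 and PGK1 stayed called in all 8 such fits. LDHA, TPI1, PDK1, GPI, VEGFA and GAPDH were called in 2, 2, 2, 1, 2 and 4 of them. PDK1 and VEGFA were not called with a pseudocount of 0.1 (adjusted p = 0.0533 and 0.0574).

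ATF4 drives amino acid synthesis and transport when amino acids are short or the endoplasmic reticulum is stressed. Of 32 tested ATF4 and amino acid stress genes, 9 fell in PC9 and 22 fell in HCC827, against 3.18% and 5.44% of all genes. The interaction was called for 9, all lower in HCC827 (3.77% of all genes), and the median was -0.29. SLC1A5, a glutamine transporter, measured 109 and 117 FPKM with the control vector and 108 and 103 FPKM with ZNF263 in PC9, with close groups. The HCC827 libraries gave 56.6 and 47.9 FPKM with the control vector and 30.1 and 27.3 FPKM with ZNF263 (interaction -0.74 ± 0.12, adjusted p = 0.002897). PHGDH, the first enzyme of serine synthesis, went from 11.4 and 11.3 FPKM to 10.1 and 9.35 FPKM in PC9 and fell from 21.9 and 19.1 FPKM to 10.7 and 10.2 FPKM in HCC827 (interaction -0.71 ± 0.11, adjusted p = 0.00304). SESN2 (-0.83), a brake on mTORC1, CTH (-0.64) of cysteine synthesis, PCK2 (-0.62), DDIT4 (-0.58) and TRIB3 (-0.56) were called in the same direction. ASNS, which makes asparagine, fell in both lines (-0.66 and -0.79), with an interaction of -0.13 (95% interval -0.33 to 0.06). The count of 9 was 5 without the filter on low values. Without 1 library it ranged from 6 to 14, the highest without HCC827 control replicate 2, and CTH was not called with a pseudocount of 0.1 (adjusted p = 0.0676).

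Genes of the unfolded protein response, many of them chaperones, had called interactions of the other sign. Of 26 tested members, 10 fell in PC9 and 3 in HCC827 (3.18% and 5.44% of all genes), and 5 had a called interaction, all higher in HCC827 (4.26%). HSPA5, the main chaperone of the endoplasmic reticulum, fell from 222 and 229 FPKM to 139 and 155 FPKM in PC9 and from 172 and 173 FPKM to 142 and 144 FPKM in HCC827 (interaction 0.35 ± 0.09, adjusted p = 0.0365). PDIA4, HERPUD1, CRELD2 and MANF, which fold proteins or help clear misfolded ones, fell in PC9 and were not called in HCC827, with interactions of 0.40, 0.38, 0.40 and 0.55. Of 26 members 23 had an interaction above 0, and the median was 0.26. The count was not stable: it was 0 without PC9 control replicate 1, PC9 control replicate 2, PC9 ZNF263 replicate 1 or HCC827 ZNF263 replicate 2, 1 without HCC827 ZNF263 replicate 1, 3 without HCC827 control replicate 1, 10 without HCC827 control replicate 2, 1 with median-of-ratios scaling, and 11 in the fit of 12 libraries. MANF was not called with a pseudocount of 0.1 (adjusted p = 0.0623).

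Among epithelial adhesion genes and keratins, E-cadherin, KRT8 and KRT18 rose in PC9, and KRT7, KRT19 and KRT80 fell in HCC827. Of 40 tested members, 14 rose and 1 fell in PC9 (6.34% and 3.18% of all genes), and 8 rose and 6 fell in HCC827 (11.7% and 5.44%). The interaction was lower in HCC827 for 14 (3.77% of all genes) and higher for 2 (4.26%), the transcription factors OVOL1 (0.62) and GRHL2 (0.47). Among the 14, CLDN2 passed the filter on low values through PC9 alone and KRT19 through HCC827 alone. Those calls therefore do not support a difference of the list. With at least 1 FPKM required in all 8 libraries the number higher was 0. CDH1, the adhesion molecule E-cadherin, measured 8.05 and 7.97 FPKM with the control vector and 16.3 and 17.5 FPKM with ZNF263 in PC9. Its HCC827 values were 126 and 135 FPKM with the control vector and 136 and 136 FPKM with ZNF263, with a change of 0.06 that was not called (adjusted p = 0.573; interaction -0.93 ± 0.09, adjusted p = 0.000122). CLDN2, a pore-forming claudin, rose from 54.6 and 56.4 FPKM to 149 and 151 FPKM in PC9 and was at or under 0.150 FPKM in HCC827 (interaction -1.32, adjusted p = 2.9e-05; -0.82 and 0.115 with a pseudocount of 0.1).

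Keratins differed among themselves. KRT8 and KRT18, the partners of simple epithelia, rose in PC9, KRT18 from 1200.0 and 1233 FPKM to 1942 and 1867 FPKM. In HCC827 their groups overlapped, with KRT18 at 929 and 797 FPKM with the control vector and 812 and 867 FPKM with ZNF263 (interactions -0.57 and -0.68, adjusted p = 0.00888 and 0.00312). KRT7 and KRT80 reached their interactions of -0.68 and -0.78 (adjusted p = 0.00608 and 0.000433) with a fall in HCC827, KRT7 from 1249 and 1092 FPKM to 698 and 809 FPKM. KRT80 also rose in PC9, by 0.26 (adjusted p = 0.0297). KRT19 fell in HCC827 from 539 and 484 FPKM to 329 and 361 FPKM and was at 0 in 3 of the 4 PC9 libraries (interaction -0.73, adjusted p = 0.00924; -1.50 and 0.176 with a pseudocount of 0.1). GRHL2 was not called with that pseudocount (adjusted p = 0.2797). The number of members lower in HCC827 was 5 without the filter on low values. Without 1 library it ranged from 7 to 14, and was 7 to 9 without PC9 control replicate 2, PC9 ZNF263 replicate 1, HCC827 control replicate 1 or either HCC827 ZNF263 library.

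Of 35 tested mesenchymal and matrix genes, 11 were lower in HCC827 and 1 higher, against 3.77% and 4.26% of all genes. The list's median interaction was -0.09, and 13 of the 35 lay above 0. Within HCC827, 11 of the 35 fell and 3 rose, against 5.44% and 11.7% of all genes. Within PC9, 4 fell and 6 rose, against 3.18% and 6.34%. VIM, the intermediate filament vimentin, measured 594 and 579 FPKM with the control vector and 607 and 583 FPKM with ZNF263 in PC9. HCC827 had 139.7 and 142 FPKM with the control vector and 90.7 and 89.9 FPKM with ZNF263 (interaction -0.66 ± 0.08, adjusted p = 0.000567). CDH2, or N-cadherin, rose in PC9 (0.34) and fell in HCC827 (-0.26), with an interaction of -0.60 (adjusted p = 0.00308). CAVIN1, another coat protein of caveolae, fell in HCC827 by 0.56 (interaction -0.62). FN1, fibronectin, rose in both lines and more in PC9 (interaction -0.36). The 11 lower members became 6 without the filter on low values. Without 1 library they became 4 to 11, with 4 to 6 without any 1 of the PC9 libraries or without HCC827 ZNF263 replicate 1.

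ZNF263 moved 60 genes in opposite directions, with a call in each line and in the interaction. MRC2, an endocytic receptor for collagen, fell from 20.6 and 20.7 FPKM to 11.7 and 11.5 FPKM in PC9 and rose from 6.71 and 5.98 FPKM to 11.7 and 10.3 FPKM in HCC827. The changes were -0.78 (adjusted p = 9.18e-05) and 0.71 (adjusted p = 0.000207), and the interaction was 1.48 ± 0.11 (adjusted p = 2.9e-05). ERBB3, the partner of EGFR and ERBB2 that binds neuregulins, fell from 4.41 and 4.096 FPKM to 2.32 and 2.19 FPKM in PC9 and rose from 13.4 and 14.8 FPKM to 22.96 and 20.3 FPKM in HCC827 (interaction 1.28 ± 0.12, adjusted p = 0.000107; 0.83 with a pseudocount of 5). MT2A, a metallothionein that binds zinc and copper, went from 118 and 142 FPKM to 99.8 and 92.9 FPKM in PC9 and from 930.1 and 909.7 FPKM to 1316 and 1171 FPKM in HCC827 (interaction 0.86, adjusted p = 0.00159). CEMIP, which breaks down hyaluronan, MPP1, a membrane scaffold, and TSTD1, a sulfurtransferase, had interactions of 1.38, 1.07 and 0.87, but the last 2 were at or under 0.615 FPKM in PC9. With pseudocounts of 0.1 and 5 these became 2.39 and 0.55 for CEMIP, 2.03 and 0.64 for MPP1, and 2.41 and 0.47 for TSTD1.

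The opposite course, up in PC9 and down in HCC827, was taken by 35 of the 60. EMP1, a tetraspan protein of epithelial membranes, rose from 3.13 and 2.89 FPKM to 5.26 and 5.43 FPKM in PC9 and fell from 32.3 and 32.4 FPKM to 18.4 and 22.3 FPKM in HCC827 (interaction -1.31 ± 0.12, adjusted p = 0.000117). BMP4, a secreted morphogen, rose from 8.25 and 8.82 FPKM to 13.4 and 14.7 FPKM in PC9 and fell from 18.3 and 18.8 FPKM to 12.9 and 13.4 FPKM in HCC827 (interaction -1.13 ± 0.10, adjusted p = 9.29e-05). HKDC1, a hexokinase, rose from 7.54 and 7.09 FPKM to 10.7 and 11.9 FPKM in PC9 and fell from 12.96 and 12.3 FPKM to 8.69 and 8.89 FPKM in HCC827 (interaction -1.04, adjusted p = 0.000176). CCDC80, a secreted matrix protein, LAMB3, a chain of laminin-332, and RIMS2, a synaptic exocytosis protein at or under 1.74 FPKM throughout, had interactions of -1.01, -1.01 and -1.04. With pseudocounts of 0.1 and 5 that of RIMS2 was -2.58 and -0.31. In none of these 12 genes did control and ZNF263 libraries overlap within a line. They were picked for large changes called in each line, so this lack of overlap adds no support. The number of opposite genes was 30 when genes of low expression were not filtered out, and 20 to 132 without 1 library, the fewest without PC9 control replicate 2 and the most without HCC827 control replicate 2.

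**Figure D3:**
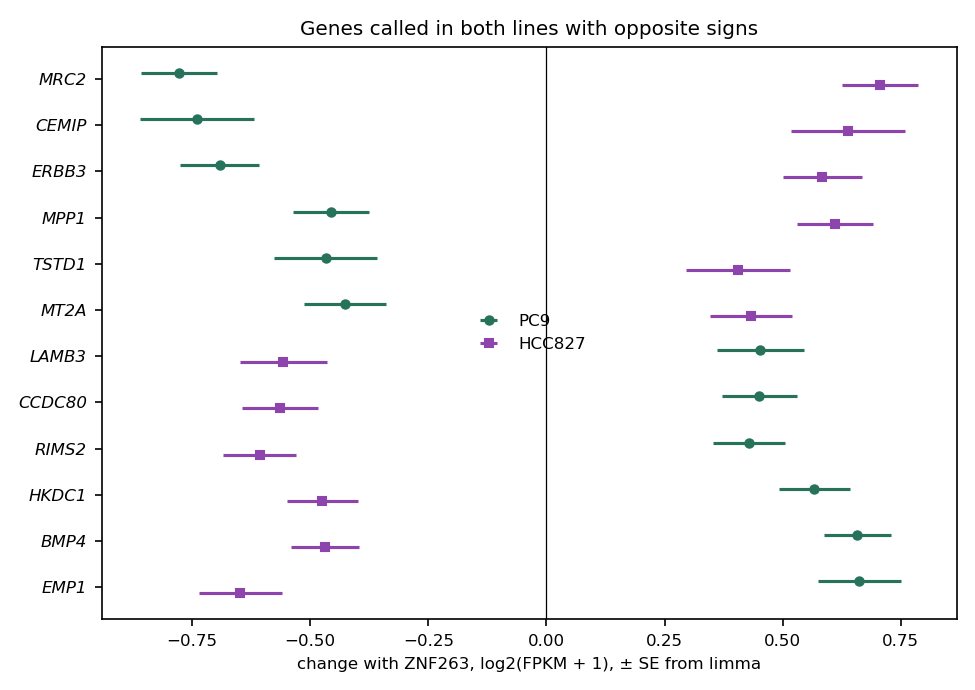
Change with ZNF263 on the log2(FPKM + 1) scale (x axis) for 12 genes called in both lines with opposite signs, PC9 as green circles and HCC827 as purple squares, with bars of ± 1 SE from limma. The 6 upper genes lie below 0 in PC9 and above 0 in HCC827 and the 6 lower genes the reverse. No bar reaches 0, but the genes were picked for large changes called in each line.

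Of EGFR's ligands, partners and inhibitors, 19.0% had a called interaction, against 8.03% of all genes. Of 21 tested ERBB receptors, ligands and inhibitors, ERBB3 and EGF (0.40) were called higher in HCC827, and TGFA and NRG1 (-0.43) lower. EGF reached 1 FPKM only in HCC827 with ZNF263, and TGFA only in PC9 with ZNF263. Both passed the filter on low values through that group alone, so the share does not support a difference of the list. TGFA, a ligand of EGFR, rose from 0.426 and 0.455 FPKM to 2.56 and 2.73 FPKM in PC9 and measured 0.569 and 0.517 FPKM with the control vector and 0.635 and 0.672 FPKM with ZNF263 in HCC827 (interaction -1.24 ± 0.10, adjusted p = 4.91e-05; -2.11 and -0.46 with pseudocounts of 0.1 and 5). EGF and NRG1 were called in 2 and 2 of the 8 fits without 1 library. ERBB2 rose by 0.33 in PC9 and 0.37 in HCC827, with an interaction of 0.04 (95% interval -0.16 to 0.24), and EREG, another ligand, fell in both (-0.73 and -0.39).

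Targets and feedback inhibitors of ERK, the kinase at the end of the pathway from EGFR, were divided. Of 32 tested, 11 fell and 2 rose in PC9, 12 fell and 4 rose in HCC827, and the interaction was higher in HCC827 for 5 and lower for 4. The shares over all genes were 3.18% and 6.34% in PC9, 5.44% and 11.7% in HCC827, and 4.26% and 3.77% for the interaction. The 5 higher became 3 without PC9 control replicate 1, and 2 without any 1 of the other PC9 libraries, without either HCC827 ZNF263 library, or without the filter on low values. The 4 lower became 2 with at least 1 FPKM required in all 8 libraries. PHLDA1, a gene induced by growth factors, fell in PC9 from 21.3 and 22.6 FPKM to 10.7 and 11.8 FPKM. In HCC827 it measured 22.3 and 22.01 FPKM with the control vector and 22.5 and 24.6 FPKM with ZNF263, where the groups were close and the change of 0.08 was not called (interaction 0.99 ± 0.10, adjusted p = 0.000201). The ERK phosphatases parted, with interactions of 0.58 for DUSP6 and -0.68 and -0.56 for DUSP4 and DUSP5 (adjusted p = 0.00697, 0.00391 and 0.00949). CCND1 and FOSL1, which ERK signalling induces, fell in both lines, with interactions of -0.09 (95% interval -0.27 to 0.09) and 0.15 (-0.10 to 0.41).

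Receptors for thrombin and related proteases fell in PC9, with no call in HCC827. F2R, the thrombin receptor PAR1, fell from 16.4 and 15.4 FPKM to 7.598 and 8.92 FPKM in PC9 and had overlapping groups in HCC827 at 6.56 to 8.11 FPKM (interaction 0.91 ± 0.15, adjusted p = 0.003496). F2RL1, or PAR2, fell from 41.7 and 43.1 FPKM to 23.4 and 25.5 FPKM in PC9 and measured 32.9 and 34.8 FPKM with the control vector and 35.9 and 38.1 FPKM with ZNF263 in HCC827 (interaction 0.90 ± 0.10, adjusted p = 0.000221). F2RL2 also fell in PC9 (interaction 0.76, adjusted p = 0.00109; 0.0746 with a pseudocount of 0.1) and was at or under 0.0342 FPKM in HCC827. It passed the filter on low values through PC9 alone, so its call does not support a difference of the coagulation and plasminogen list. These 3 genes lie side by side on chromosome 5, and the median interaction of the 20 genes around them was 0.19. The coagulation and plasminogen list had 3 members higher and 5 lower of 22, against 4.26% and 3.77% of all genes, and the 5 became 3 without any 1 of the PC9 libraries. Members lower in HCC827 included THBD, or thrombomodulin (-1.05, with a fall from 4.85 and 5.25 FPKM to 2.06 and 2.25 FPKM in HCC827), PLAU, the urokinase (-0.66), FGB, a fibrinogen chain (-0.62), and PLAUR (-0.49), the urokinase receptor. With a pseudocount of 5 the interaction of THBD was -0.54, and PLAUR was called in 2 of the 8 fits without 1 library and not with a pseudocount of 0.1 (adjusted p = 0.0769).

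Genes of the BMP and TGF-beta pathway gave 3 higher and 3 lower of 23, against 4.26% and 3.77% of all genes. Apart from BMP4, the inhibitors FSTL3, which binds activin, and NOG, or noggin, fell in HCC827. FSTL3 went from 22.6 and 20.7 FPKM to 9.05 and 10.5 FPKM there and from 57.03 and 56.5 FPKM to 59.7 and 55.5 FPKM in PC9 (interaction -1.09 ± 0.11, adjusted p = 0.0001601). NOG went from 7.15 and 7.65 FPKM to 2.91 and 3.93 FPKM in HCC827 and was at most 0.174 FPKM in PC9 (interaction -0.98, adjusted p = 0.00331; -1.23 and 0.195 with a pseudocount of 0.1). INHBB, an activin chain, fell in PC9 and rose in HCC827 (interaction 0.65, adjusted p = 0.00576). The count of members higher was 1 or 2 without any 1 of the PC9 libraries, HCC827 control replicate 1 or HCC827 ZNF263 replicate 2.

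The list of vitamin D, retinoid and steroid receptors and related genes had 5 of 21 tested members higher in HCC827 and none lower, against 4.26% and 3.77% of all genes. VDR, the vitamin D receptor, fell in both lines, from 2.54 and 2.698 FPKM to 0.394 and 0.432 FPKM in PC9 and from 9.899 and 9.11 FPKM to 7.51 and 7.24 FPKM in HCC827 (interaction 1.03 ± 0.11, adjusted p = 0.000216; 2.05 and 0.26 with pseudocounts of 0.1 and 5). PPARG, NR4A1, RARG and RARB had interactions of 0.45, 0.41, 0.39 and 0.38. The count was 1 without any 1 of the PC9 libraries or without HCC827 ZNF263 replicate 1, and 3 without HCC827 control replicate 1 or HCC827 ZNF263 replicate 2, and VDR was the member called in all 8 such fits. NR4A1 and RARB were not called with a pseudocount of 0.1 (adjusted p = 0.127 and 0.202).

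The called share was 15.2% among NF-kB and chemokine genes and 18.2% among interferon response genes, against 8.03% of all genes. Of 33 tested NF-kB and chemokine genes, CXCL1, CXCL3, TRAF1 and IL32 were lower in HCC827 and RELB, a subunit of the non-canonical pathway, was higher (0.68, adjusted p = 0.00569). Of 33 interferon response genes, 4 were lower and 2 higher. IFI44L rose in PC9 from 0.874 and 0.806 FPKM to 1.41 and 1.47 FPKM. It fell in HCC827 from 13.8 and 12.3 FPKM to 8.28 and 7.52 FPKM. Its interaction was -1.07 ± 0.12 (adjusted p = 0.000306), and -0.63 with a pseudocount of 5. OASL rose in HCC827 by 0.88, and its interaction was 1.04 (adjusted p = 0.0001601), and 0.45 with a pseudocount of 5. Without HCC827 control replicate 2 the number lower was 11, without the filter on low values it was 2, and with at least 1 FPKM required in all 8 libraries the number higher was 0. Among 16 antigen presentation genes, 6 rose in HCC827 and 2 in PC9, against 11.7% and 6.34% of all genes. B2M, the light chain of HLA class I, was the 1 member with a called interaction (0.36, adjusted p = 0.0239). It was called in 4 of the 8 fits without 1 library. CXCL3 was called in 1 of those fits and had an adjusted p of 0.0762 with a pseudocount of 0.1.

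FOSL2, an AP-1 subunit, rose in PC9 from 13.98 and 13.8 FPKM to 21.7 and 20.4 FPKM and fell in HCC827 from 44.2 and 44.02 FPKM to 35.2 and 35.96 FPKM (interaction -0.87 ± 0.09, adjusted p = 0.0001601). JUND was the other AP-1 gene called (-0.43), so 2 of 13 were lower in HCC827 and 0 higher. The counts in this paragraph stand against 3.77% lower and 4.26% higher over all genes. PIM1, a kinase induced by STAT5, fell in HCC827 from 55.1 and 53.1 FPKM to 36.5 and 39.1 FPKM and went from 14.2 and 13.2 FPKM to 15.3 and 14.99 FPKM in PC9 (interaction -0.64 ± 0.09, adjusted p = 0.00181), and IL6R and BCL2L1 made 3 lower of 20 STAT5 pathway genes. AMOTL2, PTPN14 and AJUBA, which restrain or respond to YAP, rose in PC9 and fell in HCC827 (interactions -0.69, -0.51 and -0.46). MYOF was higher (0.34), which made 3 lower and 1 higher of 24. Of 19 heparan sulfate and proteoglycan genes, the core proteins SDC4 (0.49) and SDC1 (0.33) and the sulfotransferase HS6ST2 (0.56) were higher in HCC827. Of the genes in this paragraph, JUND, IL6R, BCL2L1, PTPN14, AJUBA, MYOF, SDC1 and HS6ST2 were called in 5, 3, 3, 6, 4, 1, 3 and 2 of the 8 fits without 1 library.

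Counts for further lists follow, against 4.26% higher and 3.77% lower over all genes. Of the p53 targets 1 was higher and 2 lower of 28, of cholesterol and fatty acid synthesis genes 1 and 2 of 35, and of NRF2 and detoxification genes 2 and 3 of 37. Mitotic genes gave 1 and 1 of 34 (AURKA and PLK1), G1 cyclins, CDKs and inhibitors 1 and 0 of 18, and bypass receptor tyrosine kinases 1 and 1 of 16. In BCL2 family genes the counts were 2 and 1 of 14, in lysosomal genes 2 and 1 of 28, in S100 proteins 1 and 2 of 11, and in prostaglandin genes 1 and 0 of 10. The called share was 27.3% in S100 proteins and 21.4% in BCL2 family genes, each of 3 genes, against 8.03% of all genes. S100A14, the S100 member called higher, was at most 0.186 FPKM in PC9 and passed the filter on low values through HCC827 alone. Its call was lost with a pseudocount of 0.1 (adjusted p = 0.566), and the S100 share does not support a difference of that list. Without the filter on low values the BCL2 family counts were 0 and 0. No interaction was called among 36 DNA replication genes, 46 cytosolic ribosomal protein genes or 38 nuclear-encoded respiratory chain genes, nor did limma call any member of the last 2 lists within a line. At an unadjusted p under 0.05 the interaction counts of these 3 lists were 4, 1 and 1, the ribosomal and respiratory counts were 1 and 4 in PC9, and they were 6 and 5 in HCC827. Among 25 KRAB co-repressors and DNA methylation genes ZNF263 itself was the 1 member called. TRIM28, the co-repressor that KRAB domains recruit, measured 173 to 260.1 FPKM over the 8 libraries, with an interaction of -0.23 (adjusted p = 0.212).

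**Figure D4:**
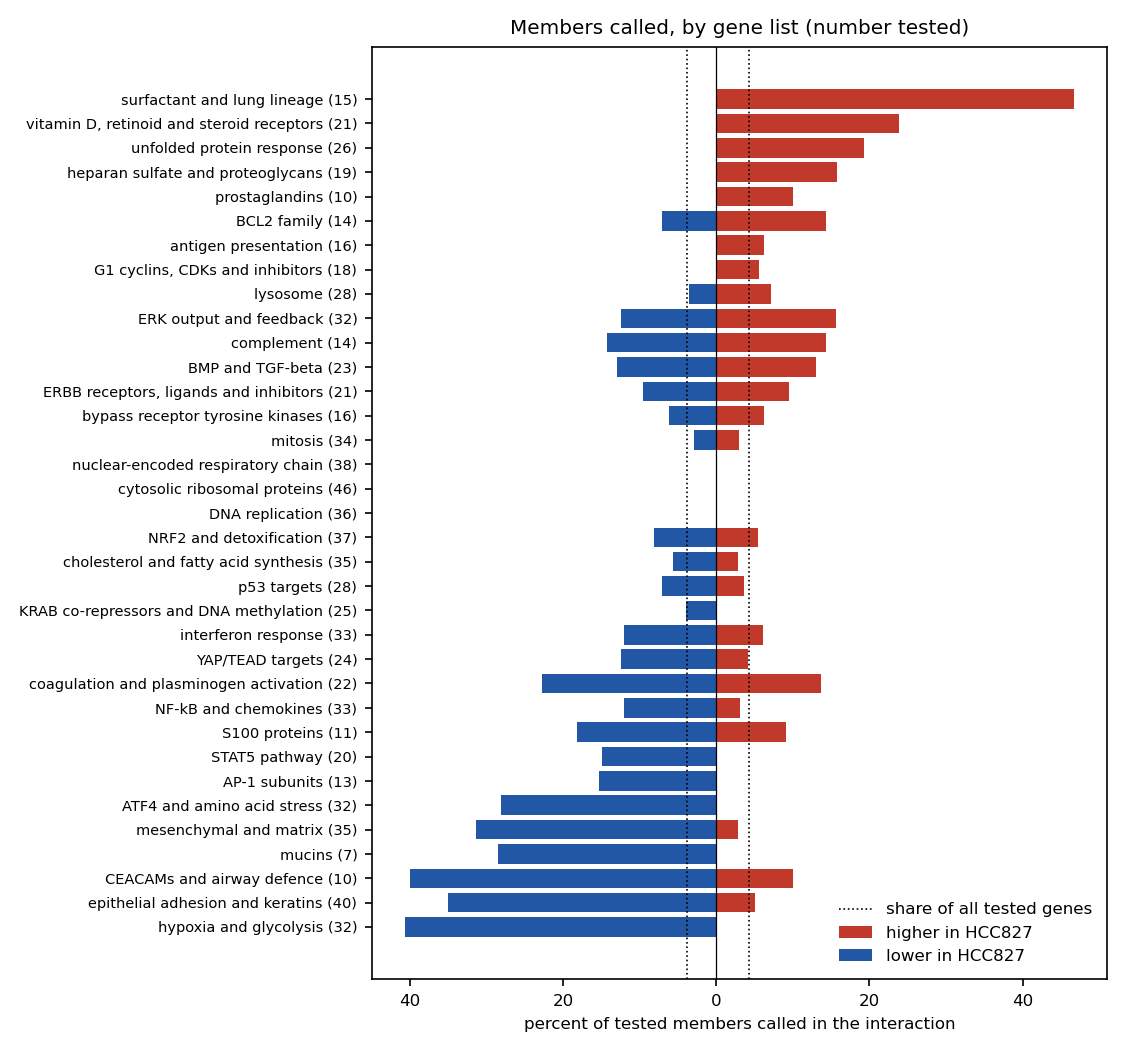
Percent of tested members (number in brackets) with a called interaction in each of 35 gene lists, higher in HCC827 to the right in red and lower to the left in blue; dotted lines mark the shares over all tested genes, 4.26% and 3.77%. Surfactant and lung lineage genes reach furthest to the right, and hypoxia and glycolysis, CEACAMs and airway defence, and epithelial adhesion and keratins furthest to the left. The bars include members that passed the filter on low values through 1 line alone, so their lengths do not by themselves support a difference of a list. With at least 1 FPKM required in all 8 libraries, 2 surfactant and lung lineage genes were higher and 1 of the CEACAMs and airway defence genes was lower.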

How the data were processed

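RNA from PC9 and HCC827 cells with a control vector or ZNF263 was sequenced as mRNA libraries made with a SMARTER kit, per the labels' protocols. The authors deposited 1 table of FPKM values per gene for all 12 libraries, made against GRCh38.p13 per the submitters' processing notes. The aligner and the counter were not given in the sources used here. Samples were grouped by their labels, with 2 libraries in each of 4 groups.

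The 8 columns of PC9 and HCC827 were taken as log2(FPKM + 1) after 27 entries named as calendar dates were left out. A further 3410 genes had no value in HCC827. limma 3.58.1 in R 4.3.3 fitted group means to the 11793 genes that reached 1 FPKM in 2 libraries or more, with a trended prior variance and Benjamini-Hochberg adjustment. The procedure was tested on simulated data. Reads behind 1 FPKM were recovered from the steps between low values, which were whole reads for 97.7% of tested genes in PC9 and 99.2% in HCC827. A difference on the log2(FPKM + 1) scale understates the change of genes with low values.

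The gene lists, and the rules for what was compared, were chosen with earlier results of these data known. Genes were named as ZNF263, EGFR and AURKA, the 12 with the largest called interaction in each direction (a group mean of at least 5 FPKM, and no overlap between lines in the library differences), the 6 opposite genes with the largest smaller change in each direction, and up to 4 called members of each list. Other list members were named for comparison, some after their values were seen, and some items are not reported here. Pseudocount, filter, scaling, libraries in the fit, prior, replicate block, neighbouring genes and each library were varied.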

Additional observations from a re-analysis of the deposited data

Results flagged for a closer look

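Results are listed here because the 2 lines responded differently to ZNF263 by a test of the difference itself (the interaction in limma, Benjamini-Hochberg adjusted p under 0.05). This held for 947 genes, of which 60 were also called within each line with opposite signs. ZNF263 itself had an interaction of -1.34, since it rose less in HCC827. Among the opposite genes, those that fell in PC9 and rose in HCC827 had interactions of 1.48 (MRC2), 1.28 (ERBB3), 1.38 (CEMIP), 1.07 (MPP1), 0.86 (MT2A) and 0.87 (TSTD1). Those that rose in PC9 and fell in HCC827 had interactions of -1.31 (EMP1), -1.04 (HKDC1), -1.13 (BMP4), -1.01 (LAMB3), -1.01 (CCDC80) and -1.04 (RIMS2).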

How the results depend on the processing

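The ZNF263 interaction lay between -1.41 and -1.13 over all alternatives run. The count of 947 called interactions was 560 with at least 1 FPKM required in all 8 libraries, where 9467 genes were tested, and 429 to 1862 when 1 library was left out. The corresponding ranges were 432 to 1599 for PC9, 740 to 2856 for HCC827, and 20 to 132 for the 60 opposite genes, which numbered 30 without the filter on low values. The cause of these moves was not tested, except that fewer libraries or other genes entered each fit. Scaling moved the split of the interactions from 502 higher and 445 lower to 356 and 533 (median of ratios) or 387 and 503 (quantile), and the split in HCC827 from 1384 and 642 to 977 and 934 or 923 and 869. Other settings gave 659 to 1205 called interactions. No result changed sign while called.

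Replicate numbers did not pair the samples, since the deviations of same-numbered libraries correlated at 0.026 in PC9 and 0.090 in HCC827. A fit with the replicate number as a block called 849 interactions, of which 790 were among the 947. Of 118 named genes called, 70 kept their call without any 1 library, 18 lost it with a pseudocount of 0.1, 7 with a pseudocount of 5, 36 without the filter, 12 with median-of-ratios scaling and 13 after the median of their 20 chromosomal neighbours was subtracted. The count that kept their call without any 1 library was taken over the named genes other than ZNF263. Genes under 1 FPKM in a line rest on few reads there.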
